A study of Mus musculus with 6 samples.

Results

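The genes described here, 9 in number, lie on one stretch of mouse chromosome 13: Tifab, the gene removed in the knockout, and 8 genes that lie near it, Macroh2a1, Catsper3, Pitx1, Neurog1, Cxcl14, Tgfbi, Smad5 and Trpc7. They are 9 of the 22180 genes measured. They were picked by name from the neighbourhood of Tifab with their knockout and wild-type levels already known, so those levels and the differences between the genotypes are given as a description, with no test. Each of the 9 had 1 probe set that the platform annotation assigns to a single gene symbol, and that probe set stands for the gene.

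RNA was measured in LSK cells, the lineage-negative, Sca1-positive, cKit-positive fraction of bone marrow that contains hematopoietic stem cells and multipotent progenitors. The groups were Tifab-/- (KO, 3 arrays from 3 mice) and Tifab+/+ (WT, 3 arrays from 3 mice). In both, the marrow had been transplanted into lethally irradiated Boy/J mice, which received 7 Gy and then 4.75 Gy after 3 hours, and it is unclear from the labels if the stated 3 months count from birth or from transplantation. The labels do not say which part of Tifab is deleted, how the allele was made, or whether donor cells were separated from cells of the host in the sort.

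Tifab encodes a relative of TIFA, a forkhead-associated adaptor protein that binds TRAF6 and carries innate immune signals towards NF-kB. The human gene lies on the long arm of chromosome 5, in a region often lost in myelodysplastic syndrome, and the genes next to it there are largely those that surround mouse Tifab. Macroh2a1 encodes macroH2A1, a histone H2A variant with a large macrodomain that is found in repressed chromatin. Smad5 transmits bone morphogenetic protein signals, and Tgfbi encodes an extracellular matrix protein induced by TGF-beta. Cxcl14 is a chemokine gene, Pitx1 and Neurog1 are transcription factor genes of limb and neuronal development, Trpc7 encodes a cation channel and Catsper3 a subunit of the sperm calcium channel.

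In the RefSeq gene order of GRCm38.p6, the measured genes from Catsper3 to Trpc7 number 16, of which 9 are the genes described. The order is Catsper3, Pitx1, Macroh2a1, Tifab, the lncRNA 4930550C17Rik, Neurog1, Cxcl14, then 6 further genes, and last Tgfbi, Smad5 and Trpc7. Macroh2a1 is the nearest measured gene on one side of Tifab and both are on the minus strand. RefSeq also lists 1 lncRNA whose span overlaps Tifab, Gm31657, and 1 that overlaps Macroh2a1, Gm31485. Neither has a probe set of its own here, and no source used here says whether the probe sets could read their transcripts.

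RefSeq promoter sequences of GRCm38.p6, 250 bases before to 50 after the annotated start, matched 8 of the 9 genes. Those of Tifab, the deleted gene, of Macroh2a1, the neighbour with the largest difference between the genotypes, and of Tgfbi, the other gene above background that was lower in every KO-labelled array, are shown to set the starts side by side, with each CpG dinucleotide in capitals. Tifab is at chr13:56178836-56179135 on the minus strand, Macroh2a1 at chr13:56135501-56135800 on the minus strand and Tgfbi at chr13:56609336-56609635 on the plus strand.
Tifab: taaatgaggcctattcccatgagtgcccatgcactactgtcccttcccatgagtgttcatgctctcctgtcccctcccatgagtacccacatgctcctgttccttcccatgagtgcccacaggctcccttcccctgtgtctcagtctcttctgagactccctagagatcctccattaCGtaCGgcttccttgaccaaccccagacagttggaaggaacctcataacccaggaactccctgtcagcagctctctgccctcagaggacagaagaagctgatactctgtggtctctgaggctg
Macroh2a1: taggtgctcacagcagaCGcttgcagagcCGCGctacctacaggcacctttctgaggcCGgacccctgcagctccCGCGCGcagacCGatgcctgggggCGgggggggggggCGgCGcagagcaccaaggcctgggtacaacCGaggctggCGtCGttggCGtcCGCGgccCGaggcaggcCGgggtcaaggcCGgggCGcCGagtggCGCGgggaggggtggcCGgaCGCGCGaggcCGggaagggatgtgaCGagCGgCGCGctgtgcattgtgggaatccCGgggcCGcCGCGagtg
Tgfbi: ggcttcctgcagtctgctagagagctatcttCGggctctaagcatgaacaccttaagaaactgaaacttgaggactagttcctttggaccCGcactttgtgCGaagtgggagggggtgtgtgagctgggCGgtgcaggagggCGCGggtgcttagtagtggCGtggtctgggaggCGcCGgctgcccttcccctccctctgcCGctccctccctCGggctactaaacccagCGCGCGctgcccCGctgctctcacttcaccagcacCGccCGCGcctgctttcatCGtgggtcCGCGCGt

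The promoter of Tifab held 2 CpGs and that of Macroh2a1 37. Over 27025 genes the median was 7, and 85.4% had at least as many as Tifab while 5.37% had at least as many as Macroh2a1. Tgfbi had 22 CpGs, as did Cxcl14, Neurog1 had 32, and the 3 annotated starts of Smad5 had 31 to 36. Catsper3 and Trpc7 had 3 each. CpG-rich starts thus occurred both in genes measured well above background, such as Macroh2a1 and Smad5, and in genes at background, such as Neurog1 and Cxcl14.

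Array signals are given in log2 units as deposited. Levels of different probe sets depend on how well their probes bind, so the levels of the genes are not ranked against each other. The values carry no detection call, and the background was therefore read from 1105 olfactory receptor genes, which are taken as silent in blood cells. The 95th percentile of their group means, called the silent-gene limit below, was 4.13 in the KO-labelled and 4.11 in the WT-labelled arrays. Of the 9 genes, Macroh2a1, Tgfbi, Smad5 and Tifab exceeded the limit of the array in 6 of 6 arrays. Pitx1 lay on the limit and exceeded it in 4 of 6 arrays. Catsper3, Trpc7, Neurog1 and Cxcl14 stayed under it in all 6, so nothing above the level of silent genes was measured for these 4.

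**Figure D1:**
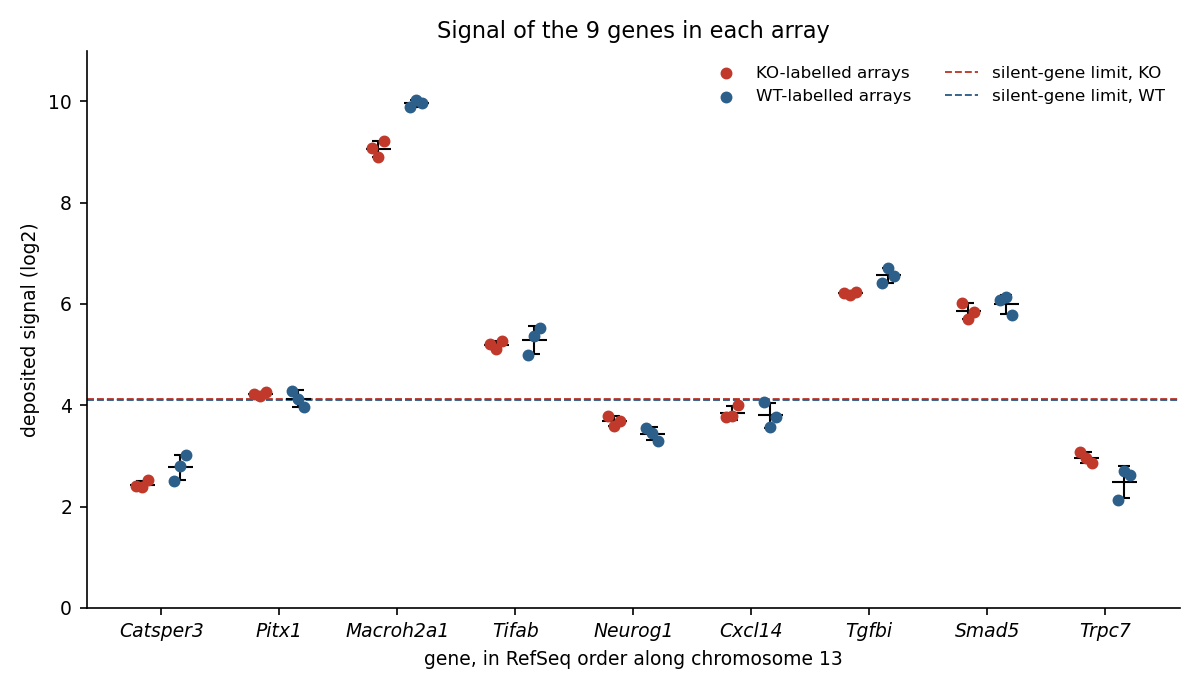
Deposited log2 signal of the 9 genes in each array, in their order along the chromosome. Points are the 3 KO-labelled arrays (left of each pair) and the 3 WT-labelled arrays (right), bars are the mean and SD, and dashed lines are the silent-gene limits of 4.13 (KO) and 4.11 (WT). The Macroh2a1 groups are separated by 0.66, while those of Tifab overlap.

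Tifab itself read 5.21, 5.12 and 5.26 in the KO-labelled arrays, against 4.99, 5.37 and 5.53 in the WT-labelled arrays. All 3 KO-labelled values lie inside the range of the WT-labelled ones, so the groups overlap. The means were 5.20 ± 0.07 and 5.29 ± 0.27 (SD, n = 3 each), a KO minus WT difference of -0.10 ± 0.18 (SE from limma). The WT-labelled arrays spread over 0.54 and the KO-labelled arrays over 0.15. By the stricter 99th percentile of the olfactory receptor genes, which was 5.27 for KO and 5.25 for WT, the KO mean was under the limit and the WT mean just over it. The probe set thus gave no check of the genotype labels, and no source used here places its probes relative to the deletion.

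Macroh2a1 read 9.07, 8.90 and 9.22 in the KO-labelled arrays, against 9.88, 10.03 and 9.97 in the WT-labelled arrays. Every KO-labelled value was below every WT-labelled one, with a gap of 0.66 between the groups, which exceeds the range within either (0.32 in KO and 0.15 in WT). The means were 9.06 ± 0.16 and 9.96 ± 0.07 (SD, n = 3 each), a difference of -0.90 ± 0.11 (SE), or 0.538 of the WT level. In these sorted populations, fewer cells that make the transcript and less of it per cell cannot be told apart.

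Of the 12675 genes whose mean exceeded the silent-gene limit in either group, 41 (0.323%) had a difference at or below that of Macroh2a1. This places the value and tests nothing, since the gene was picked with it known. Its within-group SD was 0.12, and the median within-group SD was 0.21 over genes of all levels. The SD was not compared with that of genes equally bright. The bulk of genes were much closer to 0, with the 5th and 95th percentiles of the difference at -0.43 and 0.42. In the brightest signal decile, which holds Macroh2a1, these percentiles were -0.33 and 0.41.

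Tgfbi read 6.22, 6.18 and 6.24 in the KO-labelled arrays, against 6.42, 6.72 and 6.55 in the WT-labelled arrays. The groups did not overlap, with a gap of 0.17. The difference was -0.35 ± 0.15 (SE), or 0.786 of the WT level. Smad5, its neighbour, read 6.02, 5.71 and 5.84 in the KO-labelled arrays and 6.08, 6.13 and 5.78 in the WT-labelled arrays. Its groups overlapped, and the difference of -0.14 ± 0.17 (SE) was smaller than its error.

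Pitx1, on the silent-gene limit, read 4.22, 4.18 and 4.26 in the KO-labelled arrays and 4.29, 4.13 and 3.96 in the WT-labelled arrays. The KO values lie within the WT range, and the difference was 0.09 ± 0.15 (SE). Pitx1 is thus next to Macroh2a1 in the gene order but showed no separation of the groups.

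The 4 genes under the limit differed in direction. Trpc7 read 3.08, 2.95 and 2.86 in the KO-labelled arrays, against 2.13, 2.70 and 2.62 in the WT-labelled arrays, a difference of 0.48 ± 0.18 (SE) with no overlap. Neurog1 read 3.78, 3.59 and 3.69 in KO against 3.56, 3.46 and 3.30 in WT, a difference of 0.24 ± 0.15 (SE) with a gap of 0.03. Both were higher in every KO-labelled array, at levels where silent genes also lie, and no fold change is read from them.

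Catsper3 read 2.40, 2.38 and 2.52 in KO against 2.51, 2.80 and 3.01 in WT, a difference of -0.34 ± 0.16 (SE). Its groups overlap by 0.01, since the highest KO array exceeds the lowest WT array. Cxcl14 read 3.76, 3.78 and 4.01 in KO against 4.07, 3.58 and 3.76 in WT, a difference of 0.05 ± 0.17 (SE) with overlapping groups. The olfactory receptor genes were themselves shifted, with a median difference of -0.18 and groups that did not overlap in 21.8% of them on the lower side and 2.35% on the higher side. Among genes of the same signal decile as Catsper3 and Trpc7 the median difference was -0.06, with the 5th and 95th percentiles at -0.50 and 0.29. Catsper3 lies inside these bounds, and Trpc7 lies above the upper one.

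**Figure D2:**
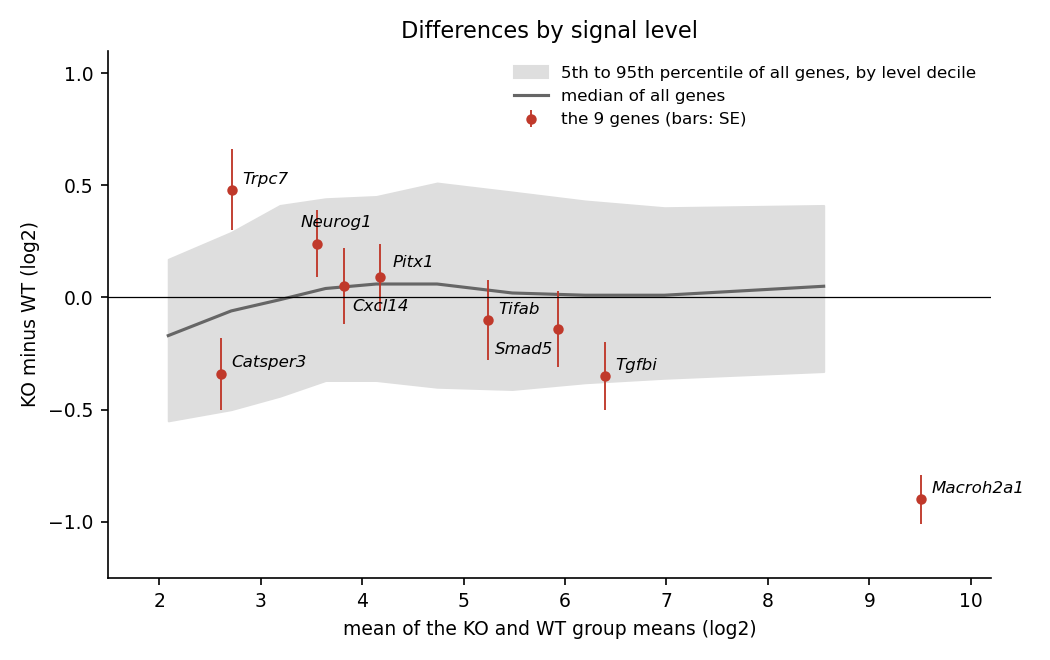
KO minus WT difference of the 9 genes against their mean signal, both in log2 units, with SE bars. The grey band runs from the 5th to the 95th percentile of all genes in each signal decile and the line is their median. Macroh2a1 at -0.90 lies below the band, whose lower edge is -0.33 in the brightest decile, and Trpc7 at 0.48 above it, while the other 7 lie inside.

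Counted together, 2 of the 9 genes were lower in every KO-labelled array than in any WT-labelled array (Macroh2a1 and Tgfbi) and 2 were higher (Trpc7 and Neurog1). Over all genes, 8.37% separated in this way on the lower side and 7.75% on the higher side. Since the genes were picked with this contrast known, nothing is read from the count. A difference of at least 1.5-fold on the lower side was present in 1 of the 9, Macroh2a1, against 1.72% of all genes. Without WT replicate 1, the groups of 8 of the 9 genes did not overlap, the 2 lower and 2 higher ones above among them. Over all genes 26.5% did not overlap. In that setting Tifab, Macroh2a1, Catsper3 and Tgfbi were the lower ones, and Trpc7, Neurog1, Cxcl14 and Pitx1 the higher ones. Among the WT-labelled arrays, replicate 1 had the lowest value of Tifab, Macroh2a1, Catsper3, Trpc7 and Tgfbi. It had the highest of Neurog1, Cxcl14 and Pitx1. With any other single array left out the count was 4 or 5, where 24.7% to 30.1% of all genes did not overlap.

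**Figure D3:**
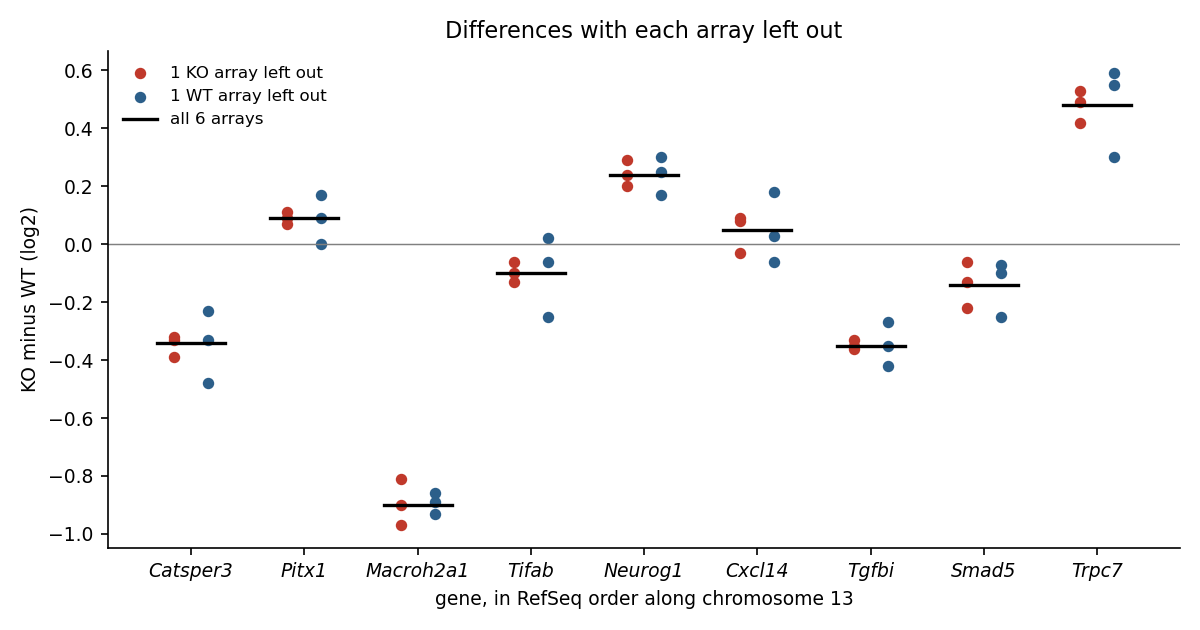
KO minus WT difference (log2) of the 9 genes with all 6 arrays (black line), with each KO-labelled array left out in turn (left points) and with each WT-labelled array left out (right points). Macroh2a1 stays between -0.97 and -0.81, Tifab lies between -0.25 and 0.02, and Trpc7 between 0.30 and 0.59.

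Leaving out single arrays showed which values rest on 1 array. Macroh2a1 ran between -0.97 without KO replicate 3 and -0.81 without KO replicate 2, and Tgfbi between -0.42 and -0.27. The difference of Tifab was -0.25 without WT replicate 1 and 0.02 without WT replicate 3. Trpc7 had 0.30 without WT replicate 1, and Catsper3 -0.23 without WT replicate 3. The values of Pitx1 went down to 0.00 without WT replicate 3, and those of Cxcl14 changed sign, between -0.06 and 0.18. Smad5 had -0.06 without KO replicate 2 and -0.25 without WT replicate 3. In the latter setting its groups no longer overlapped, and neither did those of 30.1% of all genes.

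The other measured genes around Tifab are those left after the genes above were picked with their levels known. Macroh2a1, Trpc7 and Tgfbi are thus missing from this remainder. The p-values of these other genes describe what was left and are no unselected test of the region. Within 25 measured genes on each side there were 42 of them, and in limma, with Benjamini-Hochberg adjustment over all 22180 genes, none passed an adjusted p of 0.05. Over all genes none passed either, and 2274 (10.3%) had an unadjusted p under 0.05, 5.51% on the lower side and 4.74% on the higher. Of the 42, 2 were under 0.05 unadjusted, both lower in KO. Grk6, a kinase of G protein-coupled receptors, averaged 6.05 ± 0.06 in KO and 6.68 ± 0.49 in WT (SD, n = 3 each, difference -0.63 ± 0.23 SE, limma adjusted p = 0.419). B230219D22Rik, a protein-coding gene, averaged 7.21 ± 0.25 in KO and 7.61 ± 0.01 in WT (SD, n = 3 each, difference -0.40 ± 0.16 SE, limma adjusted p = 0.442).

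These 2 lie 17 and 6 measured genes from Tifab, on the side of Macroh2a1. The next in rank were Spock1, which encodes a proteoglycan and follows Trpc7 in the order, at 0.31 ± 0.14 (SE, limma adjusted p = 0.492), and Prr7, a gene of a membrane-bound adaptor, at 0.39 ± 0.18 (SE, limma adjusted p = 0.494). Spock1 lay under the silent-gene limit in both groups. The count under 0.05 depended on single arrays: it was 0 without KO replicate 1, 3 without KO replicate 2, and 4 without WT replicate 3. It was 1 without KO replicate 3 (Prelid1), WT replicate 1 (Txndc15) or WT replicate 2 (Lect2), genes named after their values were seen. Grk6 was thus under 0.05 in 2 of these 6 fits and B230219D22Rik in 1, without KO replicate 2. Grk6 had -0.90 without WT replicate 3 and -0.43 without WT replicate 1.

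The 7 genes between Catsper3 and Trpc7 that were not picked had differences of -0.23 to 0.27. None had an unadjusted p under 0.05 in limma, where 10.3% of all genes did. This says little for so few genes, left over from a choice made with the levels known. The lncRNA 4930550C17Rik, which follows Tifab directly, averaged 3.24 ± 0.12 in KO and 3.22 ± 0.27 in WT (SD, n = 3 each), a difference of 0.02 ± 0.17 (SE). Il9, a T cell cytokine gene, had 0.10 ± 0.19 (SE) and Lect2, a secreted protein gene of the liver, 0.27 ± 0.15 (SE). Of these 7, 1 exceeded the silent-gene limit, the lncRNA Gm3045 at 0.09 ± 0.15 (SE). Among measured genes, Macroh2a1 and Tifab are thus bordered mainly by genes at the level of silent genes, with Pitx1 on the limit. The nearest other measured genes that exceed it are Pcbd2, beyond Catsper3, and Gm3045. RefSeq lists 34 genes from Catsper3 to Trpc7, of which 16 are measured, and the rest have no value here.

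Over all 42 unpicked neighbours the median difference was -0.01 and the median size of the difference 0.13, against 0.00 and 0.16 over all genes. Their groups did not overlap in 3 on the lower side (Grk6, B230219D22Rik and Ddx41, an RNA helicase gene, named after its values were seen) and in 2 on the higher side (Slc25a48, named likewise, and Spock1), 11.9% of the 42 in all, against 16.1% of all genes. Slc25a48 and Spock1 lay under the silent-gene limit in both groups. The lowest of the 42 was -0.63 and the highest 0.39. Since the picked genes were taken out with their levels known, these values do not stand for the region as a whole. The 849 other measured genes of chromosome 13 had a median of -0.02 and a median size of 0.16.

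**Figure D4:**
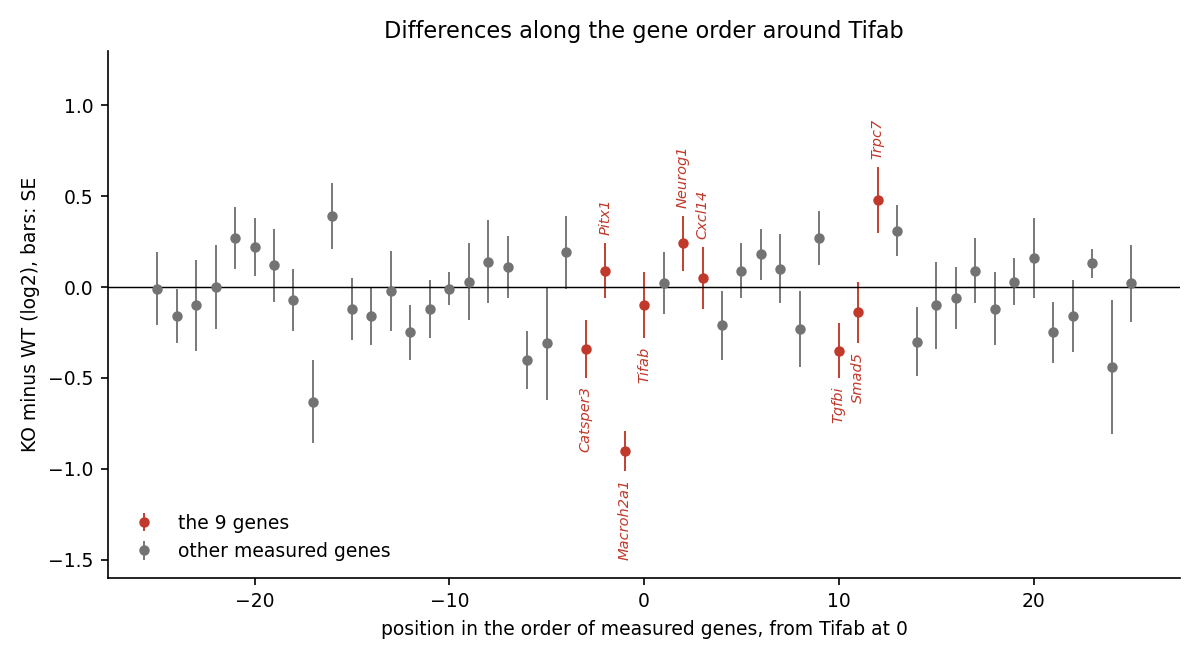
KO minus WT difference (log2, bars are SE) of the measured genes within 25 positions of Tifab in the RefSeq order, with the 9 genes in red and the other 42 in grey. Macroh2a1, directly beside Tifab, has the lowest value at -0.90, and the next lowest is Grk6 at -0.63, 17 positions away.

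Genes that work with the products of these genes were set out in 4 lists. These lists and the marker lists below were chosen with earlier results of these data known. Their p-values are therefore a description. Of 15 measured genes of the TIFA and TRAF6 adaptor pathway, 8 were on the higher side in KO and 7 on the lower, around a median of 0.08. An unadjusted p under 0.05 in limma was found for 0 of them and for 10.3% of all genes. In so short a list a count of 0 says little. Tifa, the relative of Tifab, averaged 4.85 ± 0.33 in KO and 4.66 ± 0.17 in WT (SD, n = 3 each), a difference of 0.19 ± 0.20 (SE). The 4 with the smallest p were Tab2, a TAK1-binding adaptor, at 0.31 ± 0.17 (SE), Ube2v1, a partner of the ubiquitin-conjugating enzyme UBC13, at -0.39 ± 0.24 (SE), Myd88, the adaptor of Toll-like receptors, at -0.24 ± 0.16 (SE), and Map3k7, the gene of TAK1, at 0.19 ± 0.14 (SE).

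Of 13 measured genes of histone variants and their chaperones and remodelers, 7 were on the higher side and 6 on the lower, around a median of 0.09. The second macroH2A gene, Macroh2a2, lay under the silent-gene limit, at 3.92 ± 0.17 in KO and 3.79 ± 0.27 in WT (SD, n = 3 each). At an unadjusted p under 0.05 in limma, where 4.74% of all genes were higher and 5.51% lower, 1 of the 13 was higher and 0 lower. This was Anp32b, a histone chaperone gene, at 11.02 ± 0.09 in KO and 10.79 ± 0.12 in WT (SD, n = 3 each, difference 0.23 ± 0.09 SE, limma adjusted p = 0.442). In limma it was no longer under 0.05 after quantile normalization (0.15, unadjusted p = 0.139) or cyclic loess (0.13, unadjusted p = 0.159), without the intensity trend (unadjusted p = 0.134), with the replicate block (unadjusted p = 0.0576) and in 4 of 6 fits with 1 array left out. H2az1, the gene of another H2A variant, had 0.31 ± 0.16 (SE), Parp1, whose product binds macroH2A1, 0.25 ± 0.13 (SE), and Atrx, a chromatin remodeler gene, 0.15 ± 0.13 (SE).

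Of 26 measured genes of the BMP and TGF-beta pathway, in which Smad5 acts and Tgfbi is a target, 16 were on the higher side and 10 on the lower, around a median of 0.02. At an unadjusted p under 0.05 in limma, 3 were lower and 1 higher, where 5.51% of all genes were lower and 4.74% higher. After adjustment, 0 of the 26 passed. Acvr2a, an activin and BMP receptor gene, read 4.88 ± 0.15 in KO and 5.77 ± 0.33 in WT (SD, n = 3 each, difference -0.89 ± 0.20 SE, limma adjusted p = 0.297). Smad7, the inhibitory SMAD that TGF-beta induces, read 7.45 ± 0.26 in KO and 8.02 ± 0.33 in WT (SD, n = 3 each, difference -0.57 ± 0.20 SE, limma adjusted p = 0.397). The other 2, the receptor gene Bmpr1b at -0.41 and the ligand gene Bmp4 at 0.58, were under the silent-gene limit.

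All but Acvr2a of these 4 missed an unadjusted p of 0.05 in some other fit. Smad7 missed it without KO replicate 2 (-0.43, limma unadjusted p = 0.072) and without WT replicate 1 (-0.38, limma unadjusted p = 0.0681). Bmpr1b missed it after quantile normalization (-0.26, limma unadjusted p = 0.0831), after cyclic loess (-0.26, limma unadjusted p = 0.0795) and without KO replicate 2 (-0.34, limma unadjusted p = 0.0561). Bmp4 missed it in 4 of 6 fits with 1 array left out, with 0.35 without WT replicate 3 (limma unadjusted p = 0.114) and 0.83 without WT replicate 1.

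The closest relatives of Smad5 gave 0.26 ± 0.14 (SE) for Smad1, whose groups did not overlap, and -0.15 ± 0.16 (SE) for Smad9, under the limit. Among 14 measured relatives of the remaining genes, 13 were on the lower side and 1 on the higher, around a median of -0.13. An unadjusted p under 0.05 in limma was found for 0 of these relatives, against 10.3% of all genes. Of these 14, 6 exceeded the silent-gene limit. Over all genes, 11088 were on the lower side and 11092 on the higher, and the olfactory receptor genes had a median difference of -0.18. Of the 14 relatives, the 4 with the smallest p were the chemokine gene Cxcl13 at -0.45 ± 0.21 (SE), Neurog3 at -0.42 ± 0.21 (SE), the matrix protein gene Postn at -0.26 ± 0.15 (SE) and Trpc2 at -0.19 ± 0.15 (SE). The group means of Cxcl13 and Postn lay under the silent-gene limit, and Neurog3 exceeded it in the WT mean only.

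Genes whose profile over the 6 arrays was most like that of Macroh2a1 were sought among 10246 named genes brighter than the median gene, by the mean absolute difference between deviations from each gene's own mean. The 5 nearest were Cgref1, a secreted growth regulator gene, at a distance of 0.089 in log2 units, Socs1, a feedback inhibitor gene of cytokine signalling, at 0.12, Cyth3 at 0.12, Ing4 at 0.13 and Rpl22l1 at 0.14. Their KO minus WT differences, which this choice fixes in large part, ran from -0.66 to -0.84. For Tifab, among 18653 genes of any level, the 5 nearest were Olfr444, Dctn2, Castor1, Klk11 and Hoxd3os1, at 0.028 to 0.044. The first of these is an olfactory receptor gene, and all 5 had differences of -0.07 to -0.13.

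The sorted identity and the presence of other cells were read from marker lists. Of 12 LSK markers, 10 were measured and all 10 exceeded the silent-gene limit, with Kit at 9.52 ± 0.10 in KO and 9.59 ± 0.10 in WT (SD, n = 3 each). The log2 of the summed signal of the 7 neutrophil markers was 12.37 to 12.64 in KO and 12.38 to 12.61 in WT. That of 5 B and plasma cell markers was 10.18 to 10.38 in KO and 9.09 to 10.86 in WT. For 5 T and NK cell markers it was 5.87 to 6.15 in KO and 5.73 to 6.62 in WT, for 2 erythroid markers 5.53 to 5.95 in KO and 5.73 to 6.13 in WT, and for 5 macrophage markers 6.69 to 7.00 in KO and 6.94 to 7.07 in WT. The ranges of KO and WT overlapped in each of these 5 lists. Such a sum follows the brightest genes of its list. These were S100a8 and S100a9 among the neutrophil markers and Jchain among the B and plasma cell markers. The overlap therefore does not speak for the dimmer markers.

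Single markers differed at an unadjusted p under 0.05 in limma, where 10.3% of all genes did, and none passed after adjustment. On the lower side in KO these were 1 of 7 neutrophil markers (Mmp8 at -0.85), 2 of 5 macrophage markers (Vcam1 at -0.74 and C1qb at -0.51) and 1 of 10 LSK markers, the stem cell factor gene Hlf at -0.33. On the higher side they were 1 of 5 macrophage markers (C1qa at 0.52) and 1 of 10 LSK markers, the stem cell factor gene Meis1 at 0.39. The B and plasma, T and NK, and erythroid lists had 0. Markers of other cells were also present above background: 7 of 7 neutrophil and 4 of 5 B and plasma cell markers exceeded the silent-gene limit. So did 1 of 5 T and NK cell, 2 of 2 erythroid and 3 of 5 macrophage markers. S100a8 averaged 11.48 in KO and 11.54 in WT, and Jchain 9.80 in KO and 9.27 in WT. Cd3g, Cd8a, Ncr1 and Klrb1c of the T and NK markers, Ms4a1 of the B cell markers, and Adgre1 and Mrc1 of the macrophage markers lay under the silent-gene limit in both groups. The part of other cells in the difference of Macroh2a1 was not tested.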

How the data were processed

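Total RNA of 6 LSK samples was amplified, labelled with biotin and hybridised to Affymetrix MoGene 2.0 ST arrays, per the labels' protocols. The authors deposited log2 signals for 41345 probe sets, from 0.833 to 13.53, made with Affymetrix Expression Console per the submitters' processing notes; no source used here gives the summary method, normalization or version. Array medians of 4.05 to 4.10 show a common scale, and nothing was renormalised. Such scaling hides a change in total RNA, and signals near the floor compress differences.

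Of the probe sets, 23521 had 1 symbol in the platform annotation; the brightest of a gene stood for it, giving 22180 genes. KO minus WT was fitted over all genes in limma 3.58.1 (R 4.3.3) with an intensity trend, two-sided, with Benjamini-Hochberg adjustment, and tested on simulated data. The 3 arrays per group limit the precision. The labels state no pairing by replicate number, and none was seen (correlations of same-numbered deviations 0.02, -0.031 and -0.088), though such correlations cannot exclude it. The genes and lists were chosen with earlier results of these data known. By rule the text names the 9 genes, up to 4 genes of smallest p per list and among the neighbours, direct relatives of the 9, genes between them by position, and the 5 nearest profiles, skipping predicted and small RNA genes. Listed genes without a probe set of their own, Ly6a among them, were not analysed here. Coordinates are those of the RefSeq promoter table.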

Additional observations from a re-analysis of the deposited data

How the results depend on the processing

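Quantile normalization, median centring, cyclic loess and the replicate block left the difference of each of the 9 genes within 1 within-group SD of its reported value, and the 3 scalings moved the median of all genes to between -0.01 and 0.03. Macroh2a1 lay between -0.98 and -0.90 under these scalings. With single arrays left out it lay between -0.97 and -0.81 and Tifab between -0.25 and 0.02. The number of genes past an adjusted p of 0.05 in limma was 0 in the reported fit and 0 to 1 with 1 array left out. The count at an unadjusted p under 0.05 with 1.5-fold, 605 as reported, was 356 without genes under the 40th percentile of signal and 682 to 1095 with 1 array left out. The count of the 9 genes whose groups did not overlap was 4, where 16.1% of all genes did not overlap. With 1 array left out the count was 4 to 8, where 24.7% to 30.1% of all genes did not overlap. The 42 neighbours gave 2 at an unadjusted p under 0.05, with 4 after quantile normalization, 4 after cyclic loess, 1 within 10 measured genes on each side, which holds fewer genes, and 0 to 4 with 1 array left out. In the reported fit 10.3% of all genes had an unadjusted p under 0.05, and the 68 genes of the 4 related lists gave 5. That count of 5 became 3 after quantile normalization, 3 without dim genes and 3 to 7 with 1 array left out. The cause was not tested. With the replicate block the difference of Macroh2a1 was -0.90 and the adjusted count 0, and no count moved by over 1.5 times. The number of the 9 genes under the silent-gene limit was 4, and 5 by the 99th percentile. Each of the 9 has 1 probe set, so the choice between probe sets could not move them. Leaving out dim genes removed Catsper3, Trpc7, Neurog1 and Cxcl14. The deposited values carry no signal over background per probe set, which limits what can be said of Catsper3, Trpc7, Neurog1, Cxcl14 and Pitx1.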
